A study of Gossypium hirsutum with 6 samples.

Results

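A set of 275 leaf transcripts of upland cotton (Gossypium hirsutum) went in opposite directions under heat, down in the heat-tolerant genotype Nan Dan Ba Di Da Hua (N) and up in the heat-sensitive genotype Earlistaple 7 (E). They were chosen from the measured values of all 6 libraries by the ratio of a heated library to the control library of the same genotype, after 1 was added to each RPKM value. The ratio had to be 0.5 or less in N and 2 or more in E, after 4 h and after 8 h, with 10 RPKM or more in at least 1 library. RPKM is the read count divided by transcript length and by library size. Of 421554 transcripts, 22765 reached 10 RPKM somewhere, and the 275 were 1.21% of those. With the genotypes exchanged in the rule, N up and E down, 3 transcripts (0.0132%) were found. Because the rule used these same ratios, the falls in N and the rises in E are given as a description and not as a finding.

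The 6 groups held 1 library each and were named by the first letter of the genotype: N after 4 and 8 h at 45 °C and the N control at 28 °C, and E after 4 and 8 h at 45 °C and the E control at 28 °C. Seedlings were about 20 days old, grown at 28 °C in the light (14 h) and 22 °C in the dark, and heat began about 6 h after the lights came on. The labels name no donor plants, do not say whether leaves were pooled, and give 1 control per genotype for both times, so the length of heat and the hour of harvest cannot be told apart. The extraction text speaks of 28 °C leaves kept for 4 or 8 h without saying which were sequenced, so the N and E controls may have been taken at different hours. No spread between plants can be given, and no test was possible with 1 library per group. In these whole-leaf libraries, fewer cells of a type and less RNA per cell cannot be told apart.

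Plants under sudden heat make large amounts of heat shock proteins, chaperones that hold other proteins in shape, under the control of heat shock transcription factors. Transcripts for photosynthesis and growth usually decline in the same hours. A genotype-by-heat difference can arise in 2 ways that a ratio to control does not separate: the heated leaves differ, or the unheated leaves already did. Upland cotton is an allotetraploid with an A and a D subgenome, so that many genes have a close copy whose transcripts share reads. The identifiers are those of an assembly, and a search among 99454 cotton genes of the RefSeq table gave 0 matches (assembly Gossypium_hirsutum_v2.1), so the transcripts carry no gene names here, and leaf marker genes could not be looked up.

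In the N libraries the 275 transcripts had medians of 29.6 RPKM in control, 6.41 RPKM after 4 h and 6.07 RPKM after 8 h. In the E libraries the medians were 2.37 RPKM in control, 16.5 RPKM after 4 h and 21.0 RPKM after 8 h. Over all 22765 transcripts the medians lay between 9.34 and 10.6 RPKM in every library. Together the 275 held 1.88%, 0.410% and 0.497% of all RPKM in the N control, 4 h and 8 h libraries, while the corresponding E libraries had 0.157%, 1.26% and 1.44%. Their sum was thus highest in the unheated N leaf, next in the heated E leaf and lowest in the unheated E leaf. The E control was the lowest library of 232 members, and the N control was the highest of 196. For the other 79 members the highest library was E after 8 h (62) or E after 4 h (17). Low values weigh on the E control in particular, where 75 members stood under 1 RPKM and 1 was listed at 0.

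**Figure D1:**
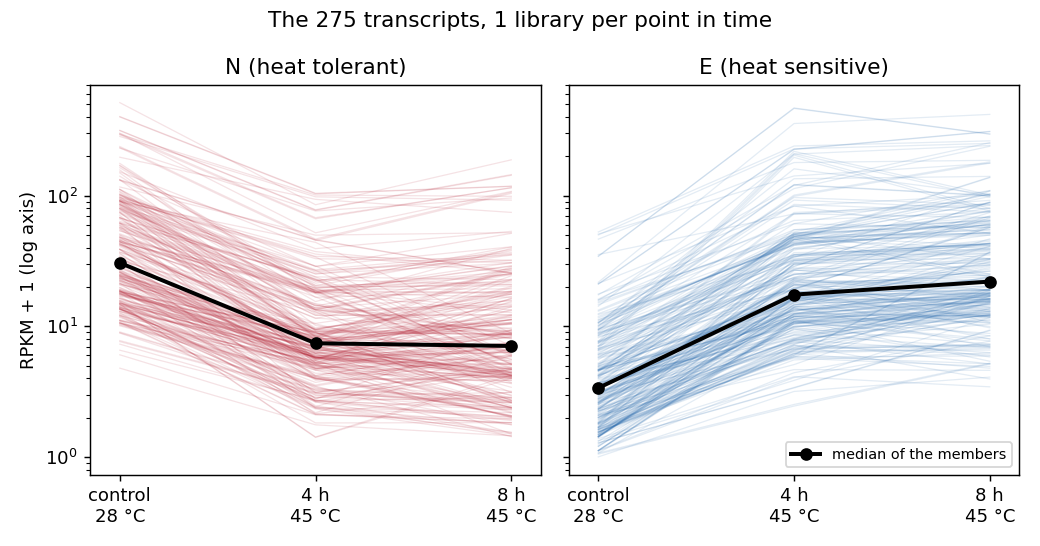
RPKM + 1 (log axis) of each of the 275 transcripts (thin lines) in the control, 4 h and 8 h libraries of N (left) and E (right), with the median of the members as a thick black line. The N lines start high and drop by 4 h, while the E lines start low and climb, so that the medians of the heated libraries, 6.41 and 6.07 RPKM in N and 16.5 and 21.0 RPKM in E, lie between those of the controls, 29.6 RPKM in N and 2.37 RPKM in E.

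On the scale of RPKM + 1, the median member was 3.86-fold lower after 4 h and 3.99-fold lower after 8 h than in the N control. In E it was 5.16-fold higher after 4 h and 6.94-fold higher after 8 h than in the E control. The strongest falls in N reached a log2 ratio of -4.57, and the strongest rises in E reached 4.87. Singly, the limits were met by 22.4% (N, 4 h), 35.8% (N, 8 h), 27.4% (E, 4 h) and 32.9% (E, 8 h) of the 22765 transcripts. A further 611 transcripts met 3 of the 4 limits. The limit missed was the fall in N at 4 h for 308 of them, the fall in N at 8 h for 172, the rise in E at 4 h for 111 and the rise in E at 8 h for 20.

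The most abundant member was comp111265_c0_seq1, at 514.72, 84.25 and 187.16 RPKM in the N control, 4 h and 8 h libraries and 20.73, 355.87 and 418.16 RPKM in those of E. Its N control was the highest of the 6 libraries, and its E control was far below every other library. comp117390_c1_seq1 measured 402.32, 103.3 and 117.3 RPKM in the N control, 4 h and 8 h libraries and 33.3, 468.48 and 296.09 RPKM in those of E, where the 4 h library was the highest of the 6. A transcript of another component, comp117390_c0_seq1, followed it at a ratio of 0.995 to 1.01 in every library, a nearly identical profile. comp104324_c0_seq1 had 315.51, 77.06 and 144.03 RPKM in the N control, 4 h and 8 h libraries and 20.11, 226.31 and 309.79 RPKM in those of E, with comp94548_c0_seq1 as a like partner (ratio 1.00 to 1.01). comp104798_c0_seq1 had 299.95, 66.85 and 113.81 RPKM in N and 16.42, 118.99 and 253.49 RPKM in E, in the same order of libraries. All 6 of these transcripts were higher at 8 h than at 4 h in N, and in each the heated E libraries were above the heated N libraries of the same time.

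The controls of the genotypes differed in every member, always with N above E. Whether both controls were taken at the same hour is not stated, so genotype and hour cannot be told apart in this gap or in its shares given below. The gap was 9.13-fold at the median (log2 3.19, range 1.16 to 5.80, on RPKM + 1), whereas the median over all 22765 transcripts was a log2 gap of 0. It was at least 4-fold in 266 members (96.7%), against 5.31% of the transcripts compared, at least 8-fold in 157 and at least 16-fold in 48. Of all transcripts compared, 354 had a log2 gap of 3 to 4, 88 one of 4 to 5 and 14 a wider one. Part of the width among the members follows from the rule. Where the heated libraries of N and E are at the same level, the 4 limits can be met only with controls at least 4-fold apart. Gaps that wide ran mostly one way among all transcripts compared, with 1208 higher in the N control and 71 (0.312%) higher in the E control.

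The difference of response (log2 ratio to control in N minus that in E) is, by arithmetic, the log2 ratio of N over E in heat minus that in control. Its median was -4.41 at 4 h and -4.95 at 8 h. The control gap made up 72.8% of it at the median at 4 h, with a range of 45.3% to 105% over the members. At 8 h it made up 66.4%, with a range of 27.3% to 99.8%. The control term was the larger part in 273 of 275 members at 4 h, in 234 at 8 h, and in the same 234 at both times. It exceeded the whole in 4 members at 4 h, those in which N stayed above E in heat. The rest of the difference, 27.2% at 4 h and 33.6% at 8 h at the median, lay in the heated libraries.

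**Figure D2:**
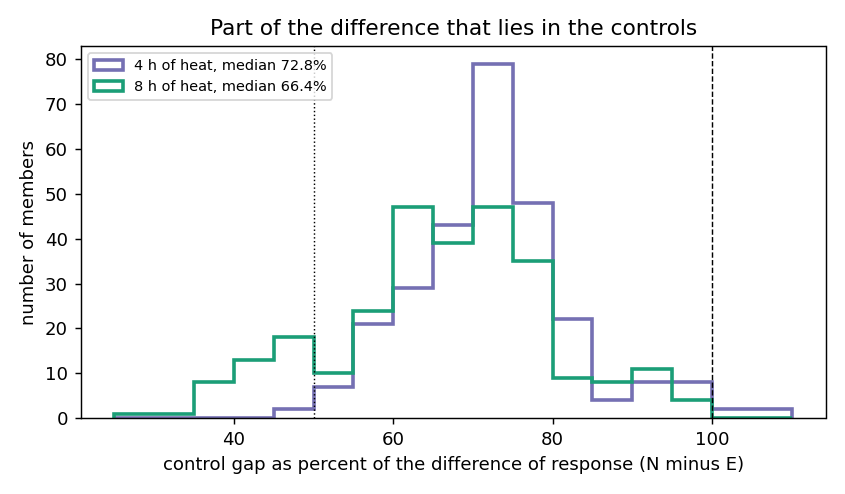
Number of members (vertical axis) by the control gap as a percent of the difference of response, N minus E (horizontal axis), at 4 h (purple) and 8 h (green). Most members lie to the right of the dotted line at 50%, and the tail under 50% holds 2 members at 4 h and 41 at 8 h, while values over 100% (dashed line) occur at 4 h alone.

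The 9 members with a control gap under 4-fold are those in which the heated libraries must differ. The smallest gap was that of comp110708_c0_seq3, with 9.55, 4.18 and 0.5 RPKM in the N control, 4 h and 8 h libraries and 3.73, 10.75 and 11.75 RPKM in those of E. Its controls were 2.23-fold apart with N higher, while after 8 h it was 8.50-fold lower in N than in E, and the gap was 27.3% of the difference of response at 8 h. comp128177_c0_seq9 had 10.04, 4.05 and 1.39 RPKM in the N control, 4 h and 8 h libraries and 3.84, 9.72 and 12.08 RPKM in those of E, with a gap of 2.28-fold. comp108345_c0_seq1 had 16.26, 7.43 and 1.59 RPKM in N and 4.8, 11.3 and 17.91 RPKM in E, in the same order. In these 3 transcripts the N values sank at each step, below the E control by 8 h, and the E values climbed at each step, so that the genotypes changed places. comp104838_c0_seq2 kept the same course at slightly higher values, with 17.52, 7.98 and 1.7 RPKM in the N control, 4 h and 8 h libraries and 5.13, 12.08 and 19.17 RPKM in those of E. comp117154_c0_seq3 was low in N, at 3.78, 0.76 and 0.45 RPKM, and reached the level limit in E after 8 h alone, at 0.33, 2.85 and 10.65 RPKM in the E control, 4 h and 8 h libraries. comp120701_c0_seq1 measured 5.05, 1.1 and 0.95 RPKM in the N control, 4 h and 8 h libraries and 0.67, 8.96 and 10.03 RPKM in those of E. The gap was under 50% of its difference of response at both times (45.3% and 42.6%), as was also the case for comp110708_c0_seq3 and for no other member. For every transcript named in this paragraph, the summed RPKM of its component, its group in the assembly, missed the 4 limits. The sum of comp99031_c0, which held another of the 9, met them. comp110708_c0_seq3 held 9.55 of the 250.75 RPKM of its component in the N control. The comp128177_c0 sum did not rise in E, at 47.91, 43.08 and 43.94 RPKM in control, 4 h and 8 h.

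At the other end stood comp107307_c0_seq2, with 93.83, 7.23 and 26.81 RPKM in the N control, 4 h and 8 h libraries and 0.7, 28.92 and 35.46 RPKM in those of E. Its controls were 55.8-fold apart with N higher, but after 8 h it was 1.31-fold lower in N than in E, so that 93.7% of the difference of response lay in the controls. comp109237_c0_seq3 had 78.01, 5.78 and 21.73 RPKM in the N control, 4 h and 8 h libraries and 0.5, 22.2 and 28.44 RPKM in those of E. comp76246_c0_seq1 had 84.2, 7.4 and 27.6 RPKM in N and 0.89, 38.22 and 40.61 RPKM in E, in the same order. comp89804_c0_seq1 had 78.59, 6.91 and 26.16 RPKM in the N control, 4 h and 8 h libraries and 0.83, 35.67 and 37.66 RPKM in those of E. All 4 transcripts with the widest gaps dropped at least 10.06-fold by 4 h in N and came partly back by 8 h, close to the E level at 8 h. They need not be 4 separate cases. comp76246_c0_seq1 and comp89804_c0_seq1 had nearly the same values in every library, and comp107307_c0_seq2 and comp109237_c0_seq3 kept a like course.

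**Figure D3:**
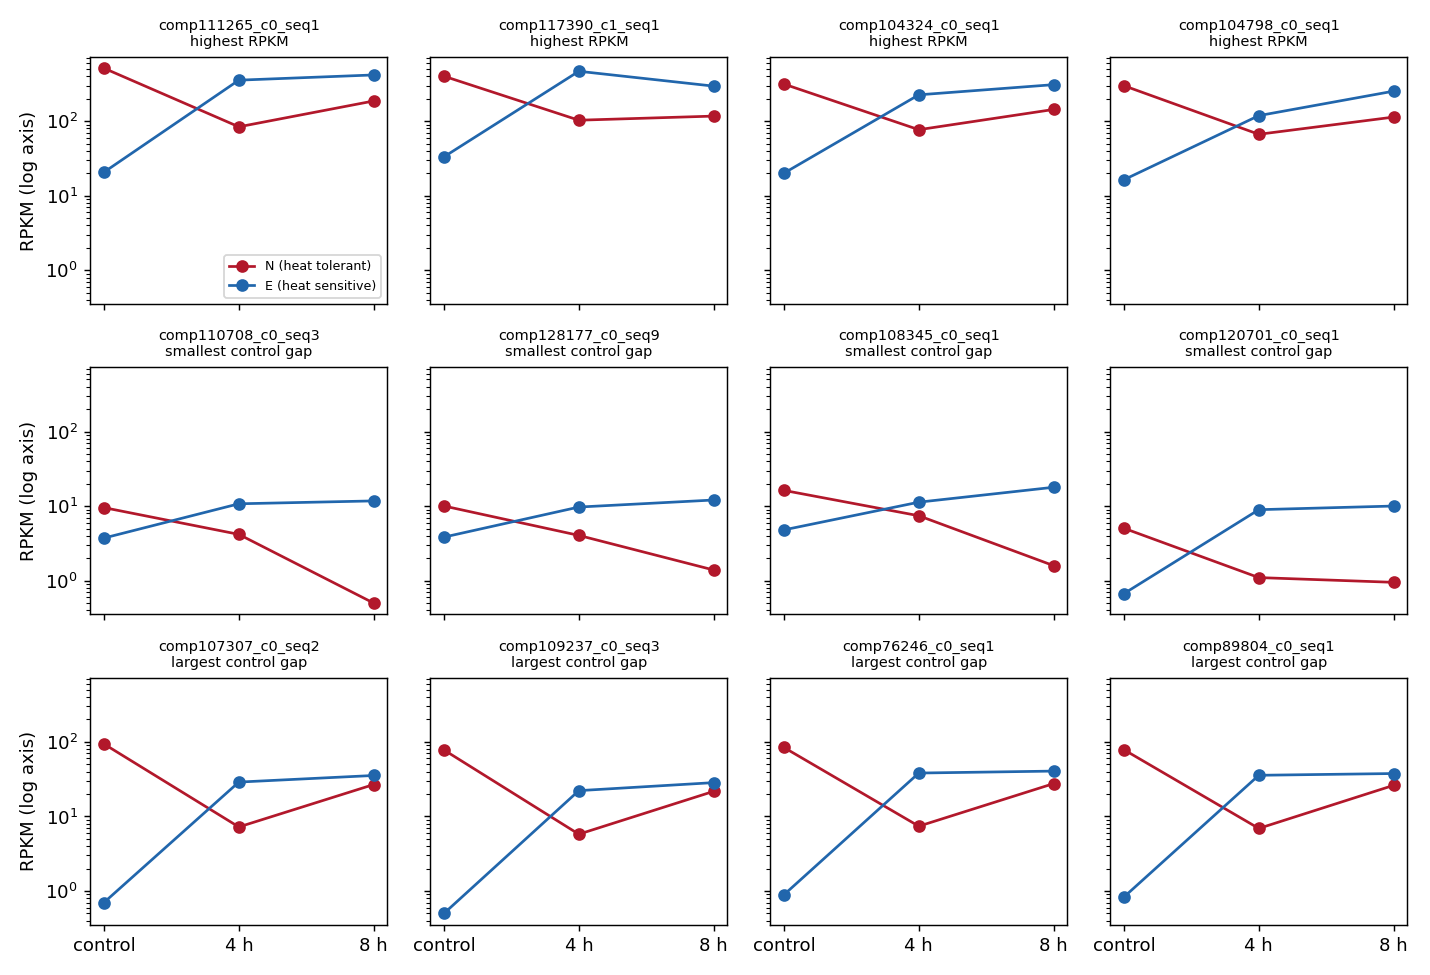
RPKM (log axis) in the control, 4 h and 8 h libraries of N (red) and E (blue) for 12 members: 4 of the most abundant (top), 4 of those with the smallest control gap (middle) and the 4 with the largest (bottom). The lines cross in every panel, but those of the bottom row nearly meet again at 8 h (26.81 RPKM in N and 35.46 RPKM in E for comp107307_c0_seq2), while those of the first 3 panels of the middle row move apart from 4 h to 8 h (0.5 RPKM in N and 11.75 RPKM in E for comp110708_c0_seq3).

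In heat the order of the genotypes was reversed. N was lower than E in 271 of 275 members (98.5%) at 4 h, against 49.1% of all transcripts compared, and in 275 (100%) at 8 h, against 59.2%. The median member was 2.23-fold lower in N than in E at 4 h and 3.16-fold lower at 8 h. A difference of at least 2-fold was seen in 169 members (61.5%) at 4 h, against 7.59% of the transcripts compared, and in 220 (80.0%) at 8 h, against 31.3%. In 145 members it was at least 2-fold at both times, which was not counted over all transcripts compared. These libraries are part of the rule, so the counts describe how the rule was met. The background share depended on scaling: median-of-ratios scaling gave 69.4% at 4 h and 43.3% at 8 h. For the members it gave 275 at 4 h and 254 at 8 h. The factors of that scaling shift the log2 ratio of N over E by 0.18 in control, -0.36 at 4 h and 0.65 at 8 h.

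Among the members furthest apart in heat, comp101048_c0_seq2 had 37.66, 3.74 and 4.97 RPKM in the N control, 4 h and 8 h libraries and 1.92, 28.68 and 36.62 RPKM in those of E. It was 6.26-fold lower in N than in E at 4 h and 6.30-fold lower at 8 h. Its N control was close to the E 8 h library, and its E control was lower than the heated N libraries. comp94465_c1_seq1 measured 40.9, 6.97 and 8.73 RPKM in the N control, 4 h and 8 h libraries and 2.28, 40.57 and 58.96 RPKM in those of E. comp100903_c0_seq2 stood at 29.9, 2.86 and 3.11 RPKM in N and 0.48, 18.97 and 25.4 RPKM in E, in the same order. comp99286_c0_seq2, with 12.46, 1.4 and 0.77 RPKM in the N control, 4 h and 8 h libraries and 0.12, 10.28 and 7.82 RPKM in those of E, was the only one of these in which E was lower at 8 h than at 4 h. The fifth by this measure was comp120701_c0_seq1, described above.

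**Figure D4:**
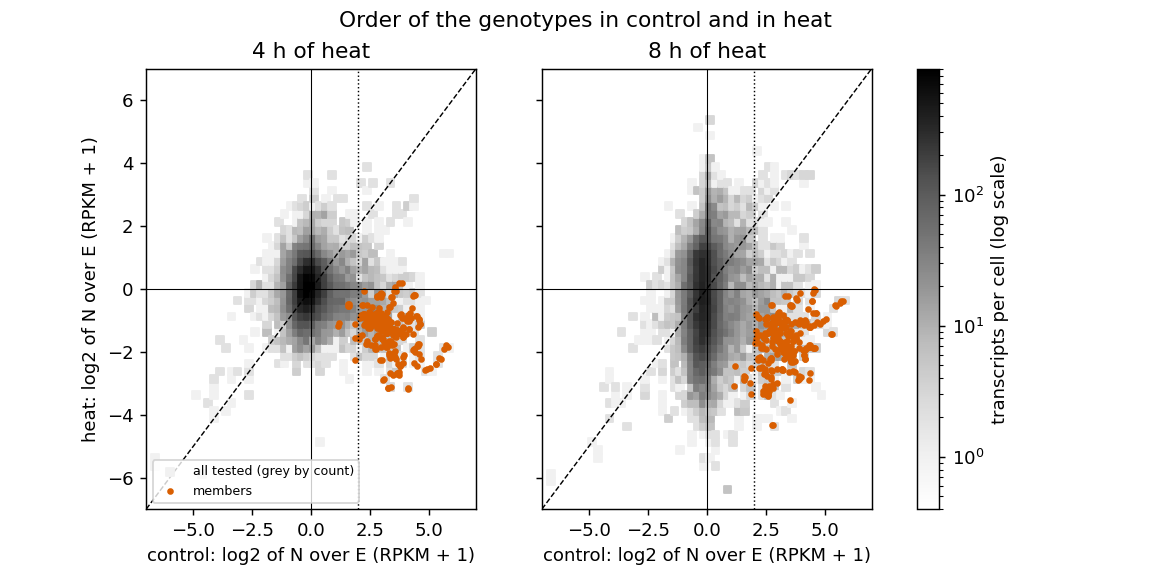
Log2 ratio of N over E (RPKM + 1) in control (horizontal axis) against that after 4 h (left) and 8 h (right) of heat (vertical axis), for the members (orange) and, as grey cells shaded by count, all 22765 transcripts that reached 10 RPKM. The members sit to the right, 266 of them past the dotted line at a 4-fold control gap, and below the horizontal line in 271 cases at 4 h and 275 at 8 h, while a transcript with the same difference in control and heat would lie on the dashed diagonal.

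How much of the pattern needs the controls was read by changing the baseline. With the geometric mean of both controls (RPKM + 1) as a common baseline, 0 of the 275 members were 2-fold below it in N and 2-fold above it in E at both times. Such a result needs a difference of at least 4-fold between the heated genotypes at both times, which 13 members had. The limits against the common baseline were met by 14 other transcripts (0.0615%), all of them higher in the E than in the N control and at 0.53 RPKM or less in every N library. At a limit of 1.5-fold, 12 members lay on opposite sides of the common baseline, among 38 of all transcripts compared. At 1.2-fold 54 members did, among 150. At any distance 140 members (50.9%) did, against 2.97% of the transcripts compared. These counts rest on the same 6 libraries that chose the members and describe them only. Of the rest, 116 members had N at or above the baseline at 1 or both times and 23 had E at or below it, with overlap between these counts. The median members stood at log2 ratios of -0.35 and -0.38 in N and 0.77 and 1.16 in E at 4 h and 8 h against this baseline.

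With the controls exchanged, the directions turned round for most members. In 232 members both heated N libraries were above the E control, by at least 2-fold in 112 of them. In 196 members both heated E libraries were below the N control, by at least 2-fold in 36. Both held for 162 members, and no member met the rule against the exchanged controls. Conversely, when each heated pair was set to its geometric mean and the controls were kept, 101 of the 275 members (36.7%) still met the 4 limits, against 0.452% of the transcripts compared. That background is made up almost wholly of members, 101 of 103 transcripts. At any distance, 274 of the 275 members had these means between the E control and the N control at both times. This was not counted over all transcripts compared. Both readings use the 6 values that chose the members, which had to have an N control well above and an E control well below the heated libraries of the same genotype, so nothing is read from the distance to the background.

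The position of the heated libraries between the controls divides the members. In 162 members (58.9%) all 4 heated libraries lay between the E control and the N control, against 1.38% of the transcripts compared (314, of which the 162 are a part). The limits themselves put the heated N libraries well under the N control and the heated E libraries well over the E control, so the higher share among the members follows from the choice. The medians of the 162 were 37.8, 6.66 and 7.89 RPKM in the N control, 4 h and 8 h libraries and 2.01, 16.3 and 19.9 RPKM in those of E. In 70 members E rose above the N control at 1 or both times. These had lower medians, 15.4, 4.83 and 3.50 RPKM in N and 1.15, 14.4 and 19.6 RPKM in E. In 34 members N sank below the E control, with medians of 52.9, 12.4 and 4.16 RPKM in N and 7.11, 28.3 and 42.0 RPKM in E. The remaining 9 members did both. Over all members, E was above the N control at both times in 20, and N was below the E control at both times in 4.

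A wide control gap did not by itself make a member. Of the 1208 transcripts whose N control was at least 4-fold above the E control, 266 (22.0%) were members. The share was 8.48% (33 of 389) for log2 gaps of 2 to 2.5, 20.9% (76 of 363) for 2.5 to 3, 30.8% (109 of 354) for 3 to 4, 45.5% (40 of 88) for 4 to 5 and 57.1% (8 of 14) above that. Of the other 942 of the 1208, 69.2% were lower in N than in E at 4 h and 67.8% at 8 h, against 49.1% and 59.2% of all transcripts compared. That background was not matched for level. Transcripts at 10 RPKM or more in the N control and within 2-fold of the E control stood at 59.2% and 75.1%. The median log2 ratio of N over E in the 942 was -0.47 at 4 h and -0.58 at 8 h, against -1.16 and -1.59 in the 266 members. Over the other 942 the median log2 ratio to control was -0.64 and -0.34 in N at 4 h and 8 h, and 2.65 and 2.92 in E. The falls in N were thus smaller than in the members, a difference that the rule itself sets. Of the 942, 718 met both limits for E, while 161 met both limits for N.

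**Figure D5:**
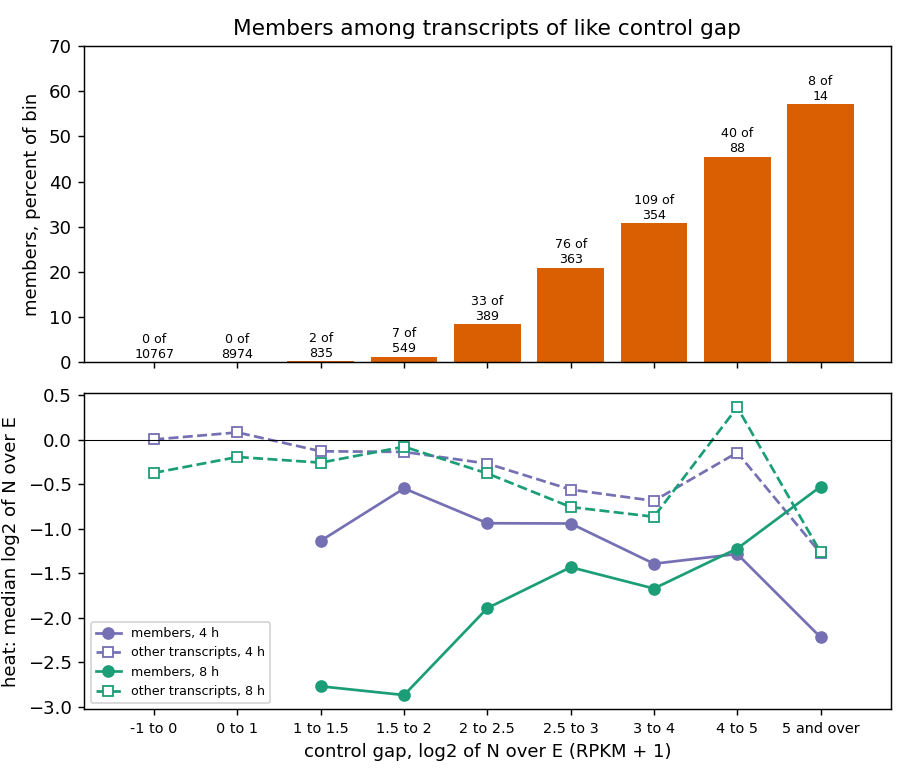
Top: members as a percent of the transcripts at 10 RPKM or more in each bin of the control gap (log2 of N over E, RPKM + 1), with the counts above the bars. Bottom: median log2 ratio of N over E in heat for the members (filled) and the other transcripts of the bin (open) at 4 h (purple) and 8 h (green). The share of members climbs to 57.1% in the widest bin, which holds 14 transcripts, and up to a log2 gap of 5 the members lie lower than the others, with medians of -1.28 and -1.22 against -0.14 and 0.37 between 4 and 5, while above 5 the 8 members lie higher at 8 h (-0.53 against -1.26).

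The heated order could also be read in libraries that did not enter a choice, apart from the level limit. Of 468 transcripts that met the limits at 4 h, the 275 among them, 415 (88.7%) were lower in N than in E at 8 h, against 59.2% of all transcripts compared. Under median-of-ratios scaling the shares were 72.2% and 43.3%. Of 762 transcripts that met the limits at 8 h, again with the 275 among them, 687 (90.2%) were lower in N than in E at 4 h, against 49.1%, and under median-of-ratios scaling 95.3% against 69.4%. Members made up 275 of the 415 and 271 of the 687. They were chosen on both times, so these shares are no check on the members. The background of all transcripts was not matched for level. Chosen by the controls alone, 977 transcripts had 10 RPKM or more in the N control and a gap of at least 4-fold. Of these 76.6% were lower in N than in E at 4 h and 77.6% at 8 h. With gaps of 2- to 4-fold, N higher, the shares over 690 transcripts were 58.3% at 4 h and 62.9% at 8 h. Among 9737 transcripts as abundant in the N control but within 2-fold of the E control, the shares were 59.2% and 75.1%. Where the E control was the one at least 4-fold higher and at 10 RPKM or more, 47 of 60 transcripts (78.3%) were lower in N at 4 h and 54 at 8 h. These 4 classes were not chosen alike, since the level limit was set on the E control in the last and on the N control in the others. No trend with the control gap is therefore read across them. Transcripts 4-fold higher in the N control were 17.4 percentage points above those within 2-fold at 4 h and 2.48 points above them at 8 h, while those 2- to 4-fold higher were not above them at either time. Under median-of-ratios scaling the shares at 4 h were 85.5% (N control 4-fold higher), 73.8% (2- to 4-fold higher), 81.6% (within 2-fold) and 95% (E control 4-fold higher), and at 8 h they were 61.6%, 48.1%, 57.4% and 85% in the same order.

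Between 4 and 8 h, a ratio the rule did not use although it holds the same libraries, most members changed little on deposited values. In N 26 members rose by 2-fold or more at 8 h and 41 fell as far, 9.45% and 14.9% of the members against 16.5% and 28.1% of the transcripts compared. In E 42 rose and 7 fell by as much, 15.3% and 2.55% against 9.97% and 4.68%. The median log2 ratio of 8 h over 4 h was 0.00 in N and 0.29 in E, and over all transcripts compared it was -0.38 and 0.07. These counts and medians depend on scaling and were not recomputed under another one. Median-of-ratios scaling divides by 1.30 and 0.78 in N at 4 h and 8 h, and by 1.01 and 1.23 in E. It would thus raise the ratio of 8 h over 4 h in N and lower it in E. In 166 members both genotypes stayed within 2-fold. No member fell 2-fold in N while it rose 2-fold in E. Neither of these joint counts was made over all transcripts compared, so nothing is read from them. Across the 275 members, the heated ratios of N over E at 4 h and 8 h gave Pearson's r = 0.04 and Spearman's rho = 0.10. The members share libraries and in part reads, and the rule that chose them used all 4 heated libraries. The correlation was not run over all transcripts compared, so no lack of relation is read from it.

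The 275 members came from 151 components, the groups of transcripts that the assembly put together, and 96 of these held 1 member. Transcripts with proportional values leave 242 distinct profiles at a distance of 0.02 and 152 at a distance of 0.1, so the number of loci behind them may be smaller. comp111960_c0 had the most members, all 11 of its transcripts. Its summed RPKM was 593.85, 211.4 and 42.27 in the N control, 4 h and 8 h libraries and 92.06, 409.51 and 497.01 in those of E. comp100396_c0, tied with 2 others at 8 members and placed first by its identifier, summed to 178.85, 38.83 and 55.32 RPKM in N and 16.48, 77.0 and 116.7 RPKM in E. Both sums fell in N and rose in E, though at 8 h comp111960_c0 was at its lowest in N and comp100396_c0 was higher than at 4 h.

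When the RPKM of all transcripts of a component was summed, 124 of the 151 components met the 4 limits as a whole, and 147 were lower in N and higher in E at both times at any distance. Much of this is given by the choice of members, which held a median 100% of their component's RPKM in the N control. In 67 components the sum is the single member itself, and of the other 84 the sum met the limits in 57. In the 43 components whose members held under 90% of the N control RPKM, 16 sums met them. The median log2 control gap of all 151 sums was 3.38. The other 277 transcripts of the 151 components were not chosen by the rule, but reads may be shared with members. Of the 137 at 10 RPKM or more, 88 (64.2%) were lower in N and higher in E at both times at any distance, against 6.27% of all transcripts compared. In 115 of the 137 the N control was at least 2-fold above the E control, and in 0 it was as far below. Of all transcripts compared, 835 had a log2 gap of 1 to 1.5, 549 one of 1.5 to 2 and 1208 one of 2 or more. In 432 the N control was more than 2-fold below the E control. The median log2 ratio to control of the 137 was -0.81 in N at both times, and 2.07 and 2.25 in E.

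Close to the limits, comp119871_c0_seq12 was just inside, at 11.95, 5.46 and 1.46 RPKM in the N control, 4 h and 8 h libraries and 0.68, 6.02 and 6.22 RPKM in those of E. So were comp113474_c0_seq5, at 19.91, 9.43 and 3.64 RPKM in N and 1.35, 17.89 and 8.74 RPKM in E, and comp113252_c0_seq42, at 12.58, 2.72 and 5.76 RPKM in N and 0.46, 5.2 and 11.06 RPKM in E. Just outside was comp84751_c0_seq1, at 75.13, 12.28 and 37.07 RPKM in the N control, 4 h and 8 h libraries and 6.79, 21.72 and 48.21 RPKM in those of E, which missed the fall in N at 8 h. comp111018_c1_seq6, at 13.83, 6.42 and 1.01 RPKM in N and 5.72, 13.43 and 16.16 RPKM in E, missed the fall in N at 4 h. comp113040_c0_seq2, at 19.64, 1.24 and 0.43 RPKM in N and 2.19, 5.35 and 8.03 RPKM in E, missed the rise in E at 4 h.

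Of the 3 transcripts with the reverse pattern, comp140440_c0_seq1 and comp143131_c0_seq1 had identical values in all 6 libraries, 5.32, 12.92 and 14.03 RPKM in the N control, 4 h and 8 h libraries and 12.99, 5.92 and 2.1 RPKM in those of E. The third, comp79541_c0_seq1, measured 1.26, 5.38 and 11.44 RPKM in N and 6.35, 1.65 and 1.16 RPKM in E. Their controls were 2.21-fold and 3.25-fold lower in N than in E, while after 8 h they were 4.85-fold and 5.76-fold higher in N. The heated libraries thus differed more than the controls in these transcripts at 8 h, unlike in most of the 275.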

How the data were processed

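Leaf mRNA was sequenced on an Illumina HiSeq instrument, per the series' design text. The RPKM values, 1 column per library with 2 decimals, are those the authors deposited, per the file headers. The software that made them (assembler, aligner, counting program, strand setting) is not given in the sources used here. All values were used as deposited, and groups follow the sample titles. Ratios were taken on RPKM + 1 and limits set at 2-fold and 10 RPKM, in Python 3.11.15 with pandas 2.3.3 and scipy 1.17.1. With 1 library per group no test was run.

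The members and all lists were chosen with earlier results of these data known. Transcripts named in the text follow a written rule: the highest 6 in RPKM, the 6 smallest and 4 largest control gaps, the 5 furthest apart in heat, 3 on each side of the limits, the 2 components with most members and any member that met the rule against the common baseline, with 1 transcript per component. The reverse-pattern transcripts were named after their values were seen. Proportional values means a Euclidean distance of at most 0.02 between centred natural logarithms of RPKM + 1.

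RPKM keeps no read totals. Relative depth, from the spacing of low values, was 1, 0.807 and 0.79 for N and 1.13, 1.07 and 0.868 for E (control, 4 h and 8 h). No counting interval is given. The scripts were tested on simulated data. Alternatives were another pseudocount, level limit, scaling, fold limit, baseline and unit of counting.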

Additional observations from a re-analysis of the deposited data

Results flagged for a closer look

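The 275 transcripts are listed because both heated N libraries moved down and both heated E libraries moved up, and the 3 reverse transcripts because the opposite held. Both directions are set by the rule that chose them, and the difference between the genotypes was not tested, since each group holds 1 library.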

How the results depend on the processing

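The count of 275 became 327 with a pseudocount of 0.1 RPKM, 335 and 373 with a level limit of 5 RPKM and none, and 364 and 393 under median-of-ratios and upper-quartile scaling. All 275 were among the first 3 counts, and 258 and 267 among the scaled ones. It was 149 over summed components, 151 at 1 transcript per component, 242 with proportional values merged, 99 and 501 at limits of 3-fold and 1.5-fold, 468 and 762 at 4 h or 8 h alone, 14 against the mean of the controls and 36 against exchanged controls. None of the 275 was among those 14 or 36. The 3 reverse transcripts became 6 and 11 with the lower level limits, 1 under either scaling, 0 and 10 at 3-fold and 1.5-fold, 9 and 23 at 4 h or 8 h alone, 6 against the mean of the controls and 53 against exchanged controls. The order of the 2 counts thus turned only with exchanged controls, among the alternatives run.

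The median log2 control gap became 3.65 (pseudocount 0.1), 2.95 and 2.87 (level limit of 5 RPKM and none) and 3.36 (component sums). Its median share at 4 h became 73.8% (pseudocount 0.1), 69.2% and 69.5% (median-of-ratios and upper-quartile) and 71.8% (component sums). At 8 h it became 63.7% (no level limit), 73.5% and 71.1% (the scalings), so that under either scaling the share at 8 h was above that at 4 h, where the deposited values had it below. Members on opposite sides of the common baseline became 40.4% (pseudocount 0.1, with 2 members at 2-fold), 60.6% (no level limit) and 43.4% (median-of-ratios). All heated libraries lay between the controls in 66.5% under median-of-ratios. N was below E at 4 h in 100% and 99.7%, and at 8 h in 95.1% and 97.7%, under the 2 scalings. With heated levels made equal, 28.2% (no level limit), 47.5% and 46.1% (the scalings) met the limits. Why the values moved was not tested. The baseline, order, position and equal-level readings beyond the 2-fold count were added after the data were seen.

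No paired analysis was possible because each group holds 1 library. Read totals are not in the files, and low values in the E control, where 75 members were under 1 RPKM, carry the least precision.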
